A study of Mus musculus with 4 samples.

Results

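Il2-producing conventional CD4 T cells were chosen by their own Il2 reads: 664 cells in 4 single-cell RNA sequencing libraries of mouse spleen, of 19100 barcodes that passed the quality limits. Those limits were at least 2000 unique molecular identifiers (UMIs, which count captured mRNA molecules), at least 500 detected genes and at most 10% mitochondrial UMIs. A cell then had to hold at least 1 UMI over Cd3e, Cd3d and Cd3g, no UMI of Foxp3, Zbtb16 or Nrn1 and fewer than 2 UMIs of Egr3, a gate that 14723 cells passed. Gated cells with at least 3 Il2 UMIs were the members (4.51% of the gated cells), and 13333 gated cells with 0 Il2 UMIs were the comparison class. Because the members were selected on Il2, Foxp3, Zbtb16, Egr3, Nrn1 and the Cd3 genes, the levels of these genes are given as a description only. The same holds for Lta and Cd40lg, the markers that came with the name of the cells.

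CD3+CD4+ T cells had been sorted from spleen and cultured for 6 h with beads carrying antibodies to CD3 and CD28. One library each came from female Irf5-/-, female WT, male Irf5-/- and male WT mice, and all 4 received the same stimulation, so there was no unstimulated group. The labels give neither age, strain, batch nor the number of mice in a library, so p-values measure the spread between these libraries. Whether the deletion was limited to a cell type is not given in the sources used here. Values listed for the 4 libraries below follow the order female Irf5-/-, female WT, male Irf5-/-, male WT.

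Interleukin 2 is the growth factor that newly stimulated T cells secrete. It acts on the same and on neighbouring cells, among them regulatory T cells, through a receptor whose alpha chain, Il2ra, is itself induced by stimulation. Transcription of Il2 needs the antigen receptor and CD28 together: calcium activates NFAT, other branches activate AP-1 and the Rel factors, and these bind close to the start of the gene. Only a minority of stimulated T cells transcribe the gene at any time, and the same NFAT-driven programme includes Tnf, Cd40lg and Lta.

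Promoter windows are shown to give the sequence context of the genes the results turn on: Il2 itself, Tnf as a secreted cytokine that was higher in the members, and Gbp5 as an interferon-inducible gene that was lower. Each line is the 250 bases before the gene start, 5′ to 3′ on the gene's strand, from RefSeq on GRCm38.p6: Il2 at chr3:37125955-37126204 (minus strand), Tnf at chr17:35202008-35202257 (minus strand) and Gbp5 at chr3:142496684-142496933 (plus strand). Capitals mark the NFAT core GGAAA, on either strand, in Il2 and Tnf, and in Gbp5 the GAS (gamma-activated site) letters TTCNNNGAA and the ISRE letters (GAAA, any 2 bases, GAAA), both on either strand.
Il2: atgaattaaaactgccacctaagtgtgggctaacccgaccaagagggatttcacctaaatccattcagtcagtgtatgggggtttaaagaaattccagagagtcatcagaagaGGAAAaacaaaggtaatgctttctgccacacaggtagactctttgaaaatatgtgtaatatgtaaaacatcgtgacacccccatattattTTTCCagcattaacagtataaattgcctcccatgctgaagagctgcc
Tnf: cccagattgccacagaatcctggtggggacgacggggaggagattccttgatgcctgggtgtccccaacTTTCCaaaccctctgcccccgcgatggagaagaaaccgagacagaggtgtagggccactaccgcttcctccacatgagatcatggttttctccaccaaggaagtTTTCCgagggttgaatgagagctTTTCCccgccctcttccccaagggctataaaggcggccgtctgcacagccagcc
Gbp5: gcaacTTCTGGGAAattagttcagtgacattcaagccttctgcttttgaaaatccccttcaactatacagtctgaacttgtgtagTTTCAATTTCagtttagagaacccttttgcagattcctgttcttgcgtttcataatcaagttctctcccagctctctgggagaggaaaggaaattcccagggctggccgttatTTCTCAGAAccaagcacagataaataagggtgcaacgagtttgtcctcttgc
The Il2 window held 2 matches to the NFAT core, the Tnf window 3 and the Gbp5 window, where they are not in capitals, 3 as well, and 55.6% of 27025 RefSeq promoter windows held at least 1. None of the 3 held the AP-1 letters TGANTCA, which 6.85% of the windows held. The Gbp5 window held 2 GAS matches and 1 ISRE match, which were present in 7.14% and 3.05% of all windows. A match describes letters only.

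The libraries held 28841161 to 55850754 UMIs, and those of the members summed to 1553967, 756653, 2107071 and 2739232. Members were deeper than the comparison class, with medians of 7231, 11314, 10060 and 13309 UMIs against 5001, 8159, 6592.5 and 9242.5, so a comparison at matched depth is given beside the plain one. Libraries shared 2 to 14 barcodes of quality-passing cells, at most 0.551% of the smaller library, and none of these was a member in both. Irf5, the targeted gene, was read first. Among the members it had 13, 0, 8 and 3 UMIs (8.37, 0, 3.80 and 1.10 CPM, counts scaled to a common total of UMIs). In the comparison class it had 192, 9, 267 and 21 UMIs (8.13, 0.852, 8.30 and 0.690 CPM). Irf5 was thus higher in the libraries labelled Irf5-/-, against the label, and whether the deleted part of the gene lies outside the counted 3′ end is not given. All directions below are therefore those of libraries labelled Irf5-/- relative to libraries labelled WT.

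The members numbered 197, 65, 199 and 203 in the 4 libraries. Their Il2 UMIs were very uneven: the median was 6, 8, 7 and 8 per cell, and the highest cell held 134, 175, 577 and 198. The 10% of members with the most Il2 carried 42.6%, 42.0%, 55.7% and 45.9% of the members' Il2 UMIs. Of the members, 197 held 3 or 4 Il2 UMIs, 222 held 5 to 9 and 245 held 10 or more. Just inside the limit stood 104 cells with exactly 3, and just outside it 152 gated cells with exactly 2. The members held 9195 of the 15707 Il2 UMIs in quality-passing cells (58.5%). A further 229 such cells with a Cd3 UMI and at least 3 Il2 UMIs were removed by the rule: 147 held at least 2 Egr3 UMIs, 93 an Nrn1 UMI, 12 a Foxp3 UMI and 3 a Zbtb16 UMI, and some met several conditions. In a background check, 0 of 52 erythroid barcodes, which had a Klf1 or Gata1 UMI, no Cd3 UMI and a median of 13297 UMIs, held an Il2 UMI, which allows a share of up to 5.77% from counting error alone. Free RNA nevertheless held Il2: barcodes with under 200 UMIs carried 416, 1323, 641 and 1343 Il2 UMIs, or 126, 127, 125 and 164 CPM, above the 84.1, 83.7, 92.1 and 96.4 CPM over all gated cells. Its part in the members' Il2 UMIs was not tested. The members' own median was 10192 UMIs.

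**Figure D1:**
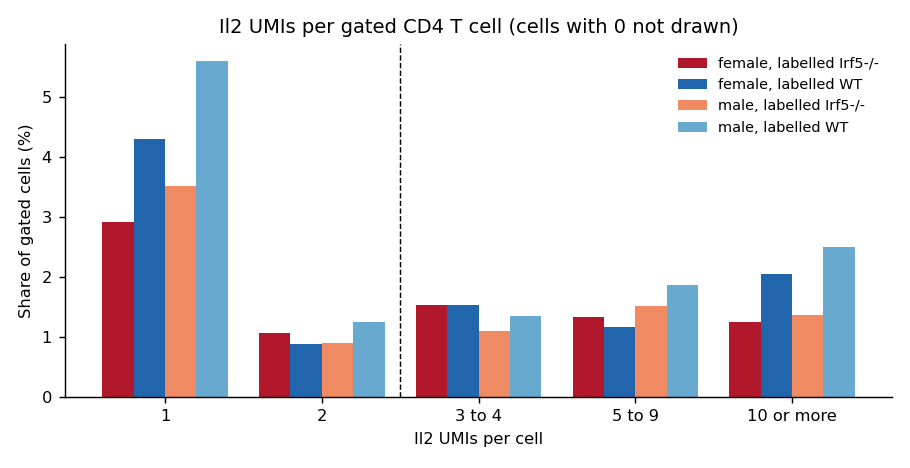
Share of gated cells (y axis, %) by the number of Il2 UMIs per cell (x axis), 1 bar per library, with cells at 0 not drawn and the dashed line at the limit for members. Cells with 10 or more Il2 UMIs made up 1.25% and 1.36% of gated cells in the libraries labelled Irf5-/- and 2.04% and 2.5% in those labelled WT.

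The share of gated cells that were members addressed how often Il2 was produced in each genotype. It was 4.11% (exact 95% binomial interval 3.57 to 4.71), 4.74% (3.68 to 6.00), 3.98% (3.45 to 4.56) and 5.71% (4.97 to 6.53). Both libraries labelled Irf5-/- lay below both labelled WT, with means of 4.04% ± 0.0943 and 5.22% ± 0.689 (SD, n = 2 each). The difference was -1.18 percentage points, with an exact two-sided permutation p of 0.3333, the smallest that 2 against 2 libraries allow. The WT libraries were also the deeper ones of each sex. When every gated cell was thinned to 2000 UMIs and counted with at least 1 Il2 UMI, the shares were 4.78%, 4.37%, 4.68% and 5.91%, and the groups overlapped (difference -0.414 percentage points, exact p of 1). The unequal depth and the genotype thus moved together in the unthinned shares.

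The label was checked against its markers, in GRCm38 coordinates. Il2 (ENSMUSG00000027720) lies at chr3:37120523-37125959, Lta (ENSMUSG00000024402) at chr17:35203165-35205351 and Cd40lg (ENSMUSG00000031132) at chrX:57212143-57224042. Lta, a secreted TNF family cytokine, was at 89.3, 106.5, 79.0 and 117.4 CPM (from here with TMM factors, which correct for library composition) in the members and at 30.3, 32.3, 28.1 and 47.9 CPM in the comparison class. Cd40lg, the surface ligand with which helper T cells signal to B cells and dendritic cells, was at 136.8, 155.1, 115.8 and 132.5 against 44.9, 49.1, 41.7 and 46.5 CPM. Both markers were higher in the members of each library, as the label says. At a common depth of 2000 UMIs, 19.2% ± 4.84 of members had a Cd40lg UMI against 6.46% ± 0.293 of the comparison class (SD, n = 4 libraries), beside 3.85% of the erythroid barcodes without thinning. Cd4 was at 58.5, 36.4, 37.2 and 44.6 CPM in the members and did not pass the test against the comparison class (log2 fold change -0.24, adjusted p 0.0578, edgeR). Markers of other cell types were summed over every gene of each list (CPM without TMM factors). Over 5 B cell genes the members had 6.61 to 13.5 CPM, all of it Ighm, with Cd79a, Cd79b and Ms4a1 at 0 UMIs, and the comparison class had 22.8 to 225 CPM. Over 3 gamma-delta T cell genes the members had 0 to 1.32 CPM and the comparison class 4.73 to 14.5. The 2 CD8 genes gave 3.29 to 8.37 CPM in the members, with Cd8a at 0 UMIs, and 8.80 to 9.96 in the comparison class. Myeloid genes gave 15.9 to 30.7 CPM in the members against 31.8 to 63.2, mostly Cst3, with Lyz2, Itgam and C1qa at 0 UMIs in the members. The 2 innate-like T cell genes, all of it Cxcr6 in the members, gave 10.9, 3.96, 10.4 and 4.75 CPM against 14.1, 8.70, 6.72 and 4.99, so the members were higher in the male library labelled Irf5-/-. The 4 NK cell genes gave at most 0.73 CPM in the members and 3.45 to 5.20 in the comparison class. The 5 erythroid genes had 0, 10, 0 and 2 UMIs in the members, highest in the female library labelled WT at 13.2 CPM, where the comparison class was highest too at 15.7 CPM. Of 12 tested regulatory T genes 4 were higher in the members and 1 lower by edgeR (median log2 fold change -0.23). Tnfrsf4 had the largest rise (1.51), and Ikzf4 (-3.12) passed the test's low-count filter, described below, only through the comparison class. The tested genes summed to 1691, 1583, 1783 and 1511 CPM (with TMM factors) against 1106, 931, 1009 and 873, higher in the members of each library.

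Against all gated cells with 0 Il2 UMIs, the members carried more RNA of growth genes, of most tested cytokines and of TNF family ligands, and less of interferon-response, resting-cell and most memory and effector genes. Of 9799 genes tested, 2230 were higher (22.8%) and 2310 lower (23.6%) at a Benjamini-Hochberg adjusted p under 0.05 by edgeR's quasi-likelihood test with the library as a block. All 20 growth, Myc-target and nucleolar genes were higher, with a median log2 fold change of 0.53 beside -0.03 over all genes tested. Of 7 heat shock and dissociation genes 6 were higher and none lower (median 0.51), and their part in the other differences was not tested. Of 12 tested cytokines and chemokines 8 were higher and 1 lower (median 0.78), and of 5 TNF family ligands 4 were higher and 1, Tnfsf10, lower (median 1.12). Of 18 memory and effector genes 2 were higher and 13 lower (median -1.30), down to Ccl5, a chemokine of effector T cells (-3.71). All 28 tested type I interferon-response genes were lower (median -2.43). The test's low-count minimum was 1.5 CPM in at least 4 of the sums per library and class. Of the 28 genes, 7 reached 1.5 CPM in all 4 libraries of the comparison class but not of the members. This fixes their direction in part. Such genes are said here to meet the minimum only through 1 class, and genes short of 4 libraries in both classes to meet it in neither. With no such minimum, 29 of 29 genes with a UMI were lower by edgeR (median -2.51 beside -0.36 over all genes). Of the memory and effector genes 6 met the minimum only through the comparison class, Ccl5 among them, and so did Tnfsf10, while Tnfsf14 met it only through the members. Of the 12 cytokines and chemokines 8 met it in both classes, Xcl1 only through the comparison class and 3, Ifng among them, in neither. With no minimum 12 of 21 cytokines with a UMI were higher and 3 lower by edgeR (median 0.96 beside -0.36 over all genes). Also lower were 18 of 20 naive and quiescence genes (median -1.54), with 2 higher, and 3 of the 20 (Il6ra, Rasgrp2 and Cd55) met the minimum only through the comparison class. Ifit3, an interferon-induced antiviral gene and 1 of those 7, was at 1.3, 0, 1.9 and 0.8 CPM in the members against 41.1, 25.2, 32.6 and 17.1 CPM. S1pr1, the receptor with which T cells leave lymphoid organs, was at 4.5, 2.7, 7.9 and 3.1 CPM against 61.2, 68.0, 67.4 and 68.6 CPM. The classes also differed in markers of stimulation. At least 1 UMI each of Irf4 and Myc, which rise on stimulation, was present in 86.3%, 96.9%, 89.4% and 91.6% of members and in 42.3%, 51.9%, 43.5% and 49.1% of the comparison class. After thinning every cell to 2000 UMIs the shares were 41.1%, 41.5%, 39.2% and 37.9% against 21.5%, 22.6%, 19.2% and 18.8%. With the comparison cells paired to the members by total UMIs, 1456 genes were called in place of 4540.

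The remaining comparison was therefore limited to cells with both UMIs and of equal depth. The 597 members with a UMI of Irf4 and of Myc were each paired within their library with the cell of 0 Il2 UMIs, also with both UMIs, that was nearest in total UMIs. Median depth was then 7220.5, 11305, 9964.5 and 13289.5 UMIs in the members and 7216, 11272, 9962.5 and 13285 in their partners. Of 7234 genes, 355 were higher (4.91%) and 337 lower (4.66%) by edgeR, far fewer than before. Leaving out the male library labelled Irf5-/- reduced the 692 calls to 373. DESeq2's Wald test called 188, all of them among the 692. Myc, used to choose the cells, was still higher in the members of each library (557, 614, 397 and 498 against 435, 435, 320 and 395 CPM), whereas Irf4 was higher in some libraries and lower in others (784, 909, 697 and 831 against 829, 902, 753 and 806 CPM).

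**Figure D2:**
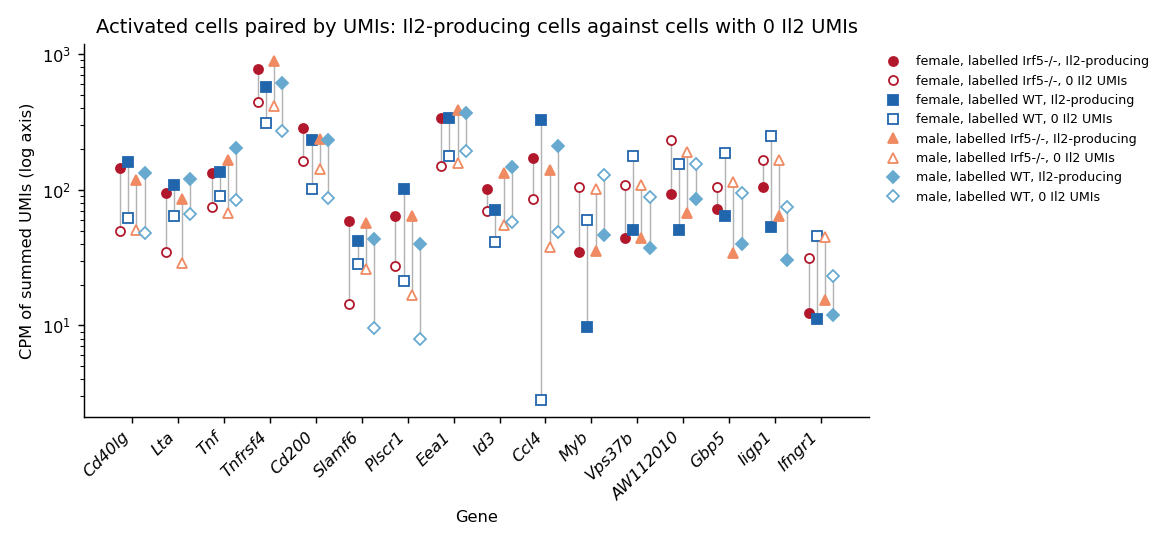
Level (y axis, CPM of UMIs summed per library, log axis) of 16 genes (x axis) in Il2-producing cells (filled) and in their depth-matched activated partners with 0 Il2 UMIs (open), 1 symbol per library joined by a grey line. Every filled symbol lies above its partner for the first 10 genes and below it for the last 6; Cd40lg and Lta are the given markers and were not tested.

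Secreted cytokines were higher in the members even among responding cells of equal depth. Of 22 listed cytokines and chemokines other than Il2 and Lta, 7 were abundant enough to test. Of these, 6 rose and none fell, with a median log2 fold change of 0.51 beside -0.01 over all genes. Csf2 and Ccl4 met the low-count minimum (6.31 CPM here) only through the members. With no minimum, 11 of 20 cytokines with a UMI rose and 1, Il17a, fell (median 1.38 beside -0.01 over all genes), which takes in genes carried by a few cells. Tnf, the inflammatory cytokine encoded next to Lta, was at 132, 135, 167 and 203 CPM in the members and 74.6, 89.2, 67.6 and 83.3 CPM in their partners, with no overlap (log2 fold change 1.11, SE 0.09, adjusted p 5.87e-11, edgeR). Ltb, the membrane partner of Lta, was at 378, 265, 390 and 459 against 229, 269, 240 and 339 CPM, so the female WT library did not follow the other libraries (log2 fold change 0.51, adjusted p 9.87e-07, edgeR). Against all cells with 0 Il2 UMIs Ltb was lower in the members (-0.14, adjusted p 0.0225, edgeR). Ccl4, a chemokine that attracts other leukocytes, was at 170, 329, 140 and 211 against 86.0, 2.8, 37.7 and 48.9 CPM (log2 fold change 2.03, SE 0.19, adjusted p 5.49e-10, edgeR). Few cells carried it: over all members, 34, 10, 29 and 29 cells held a Ccl4 UMI, and the 5 highest held 40.9%, 87.7%, 67.5% and 71.7% of its UMIs. The Ccl4 call was lost with DESeq2 (adjusted p 0.127). Csf2, the growth factor of granulocytes and macrophages, also passed (log2 fold change 1.45, adjusted p 0.00317, edgeR). Its level was 6.93, 20.9, 45.5 and 16.9 CPM against 13.7, 5.66, 4.19 and 9.12, so it was lower than in the partners in the female library labelled Irf5-/-. In addition, 5 cells held 96.7% of its 91 UMIs in the male library labelled Irf5-/-.

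UMIs of effector cytokines of differentiated helper cells were seen in few members. Of 664 members 0 held a UMI of Il5 or Il9, which allows a share of cells with a UMI of up to 0.452% for each and sets no limit on cells that express the gene, while 1 held a UMI of Il10, 3 of Il17a and 1 of Il22. None of these 5 genes was seen after thinning to 2000 UMIs. Il4 was seen in 0.126% ± 0.251 of thinned members and 0.238% ± 0.140 of the thinned comparison class (SD, n = 4), and Il21 in 0.374% ± 0.480 and 0.0329% ± 0.0280. Ifng, the type 1 cytokine, was seen in 0.881% ± 0.760 and 0.268% ± 0.164, beside 1.92% (1 of 52) of the unthinned erythroid barcodes. Ifng was also the largest named rise against all cells with 0 Il2 UMIs, at 48.2, 1.35, 130 and 3.10 CPM against 1.31, 1.22, 2.38 and 1.05 (log2 fold change 4.65, adjusted p 3.61e-11, edgeR), with overlap between the classes. Its unthinned 75, 1, 280 and 8 UMIs lay in 5, 1, 5 and 3 cells. Ifng met the low-count minimum in neither class. It did not enter the test after thinning, with depth pairing or without the male library labelled Irf5-/-. Il3 was carried by a single cell with 58 UMIs in the male library labelled Irf5-/- and by 3 cells with 1 UMI each in the female one.

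Surface ligands of the TNF family rose together with the secreted ones. All 4 tested members of 8 listed were higher than in the partners, with a median log2 fold change of 0.88. Of these Tnfsf14 met the low-count minimum only through the members, so its direction was fixed in part by the filter. With no minimum, 4 of 7 ligands with a UMI rose and none fell (median 0.85). Tnfsf8, the ligand of CD30, was at 552, 654, 598 and 503 CPM against 265, 295, 310 and 306 (log2 fold change 0.93, adjusted p 1.11e-14, edgeR). Tnfsf11, known as RANKL, was at 319, 545, 311 and 300 CPM against 180, 242, 186 and 182 (0.84, adjusted p 6.20e-12, edgeR). Tnfsf14, known as LIGHT, was at 13.9, 15.3, 17.4 and 12.8 CPM against 3.04, 5.66, 1.05 and 1.66 (2.68, adjusted p 1.24e-06, edgeR). The members of each library were above their partners for all 3. Fasl, the death ligand, had the smallest rise of the list (0.50, adjusted p 0.0273, edgeR).

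Receptors on the surface moved in both directions. Tnfrsf4 (OX40), a costimulatory receptor, was at 775, 570, 889 and 607 CPM against 443, 309, 417 and 269 (log2 fold change 1.01, SE 0.05, adjusted p 1.84e-16, edgeR). Cd200, a ligand of an inhibitory receptor, was at 287, 234, 238 and 231 against 162, 102, 143 and 86.7 CPM (log2 fold change 1.02, SE 0.08, adjusted p 2.37e-11, edgeR). The members lay above the partners of every library for both genes. Of 10 costimulatory receptors 4 rose and 5 fell (median -0.22): Slamf1 and Cd226 rose with Tnfrsf4 and Tnfrsf18, while Cd28, Cd2, Tnfrsf9, Cd27 and Icos fell. Cd28, the receptor engaged by the beads, was at 106, 92.0, 114 and 103 CPM against 198, 168, 186 and 217 (log2 fold change -0.90, SE 0.08, adjusted p 8.93e-11, edgeR), with no overlap. Slamf6, a self-binding receptor of T cells, was at 58.6, 41.8, 56.8 and 43.7 against 14.5, 28.3, 26.2 and 9.5 CPM (log2 fold change 1.51, SE 0.18, adjusted p 8.83e-08, edgeR). Over all gated cells Slamf6 averaged 64.2 CPM (without TMM factors) at 0 Il2 UMIs. Its averages were 52.9, 47.8 and 66.5 at 3 or 4, 5 to 9 and 10 or more Il2 UMIs. The rise was thus seen against the activated partners and not against all cells with 0 Il2 UMIs. At 2000 UMIs per cell, 8.82% ± 0.734 of all members and 12.9% ± 0.906 of all cells with 0 Il2 UMIs had a Slamf6 UMI (SD, n = 4). Of the deeper, unthinned erythroid barcodes 7.69% had one, so these shares are read neither as expression nor as a difference. Among 14 tested anergy and inhibitory-receptor genes 6 rose and 2 fell. Pdcd1 (PD-1), at 21.6, 16.7, 21.0 and 10.3 against 6.85, 7.08, 3.67 and 10.8 CPM, rose by a log2 fold change of 1.17 with an adjusted p of 0.00920 by edgeR, although not in the male WT library, and it met the low-count minimum only through the members. Dgka, a kinase that dampens receptor signalling, fell (-0.96, adjusted p 0.00956, edgeR) and met the minimum only through the partners.

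Genes of the first response to the antigen receptor were higher as a group. Of 19 tested immediate-early genes, 16 rose and 1 fell (Icos), with a median log2 fold change of 0.43. Egr2, a zinc-finger factor of the same family as the rule gene Egr3, was at 48.5, 58.6, 59.3 and 49.5 CPM against 31.2, 43.9, 29.9 and 26.9 (log2 fold change 0.79, adjusted p 7.60e-05, edgeR), although the rule had capped Egr3. Nfkbid, a nuclear regulator of Rel factors, was at 364, 402, 344 and 434 against 212, 215, 214 and 239 CPM (0.80, adjusted p 1.54e-12, edgeR). Both separated without overlap. Dusp6 and Dusp4, phosphatases that limit MAP kinases, had log2 fold changes of 1.20 and 0.97, and both met the low-count minimum only through the members. Nr4a1 changed least of the group's receptor-responsive nuclear receptors, by 0.21 (adjusted p 0.00348, edgeR).

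Among 20 tested NFAT, AP-1, Rel and Oct factors that act on the Il2 promoter, 6 rose and 1 fell (median 0.20). Pou2f2 (Oct-2) was at 219, 212, 197 and 133 CPM against 118, 118, 102 and 97.4 (log2 fold change 0.77, adjusted p 1.22e-08, edgeR). Rel, the c-Rel subunit that CD28 signals engage, was at 454, 586, 522 and 467 against 329, 370, 366 and 367 CPM (0.47, adjusted p 1.93e-08, edgeR). Neither overlapped. Ets1 was the factor that fell, at 109, 80.9, 91.0 and 75.8 against 198, 191, 189 and 170 CPM (-1.06, adjusted p 4.47e-12, edgeR). Nfatc1 (0.11, adjusted p 0.492) and Fos (0.09, adjusted p 0.831) did not pass edgeR's test. Of 7 tested repressors of Il2, 3 fell and none rose: Ikzf3 (-0.49), Crem (-0.41) and Satb1 (-0.23). Of 13 genes of cytokine mRNA decay, 1 changed, Hnrnpll (0.69, adjusted p 0.00254, edgeR).

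The receptor for interleukin 2 differed by small amounts. Il2ra was at 411, 471, 423 and 404 CPM in the members against 327, 418, 352 and 366 (log2 fold change 0.23, adjusted p 0.00345, edgeR). Il2rb, the beta chain, did not pass (0.53, adjusted p 0.0516, edgeR). Of 11 tested genes of the receptor and its signalling 2 rose, Il2ra and Stat5a, and 4 fell, with a median of 0.01. The falls were Bcl2 (-0.80), the survival factor downstream of the receptor, Socs1 (-0.49), an inhibitor of cytokine signalling, Stat3 (-0.36) and Jak1 (-0.27).

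Listed interferon-response genes were lower in the members after matching too. Of 18 tested genes of the type I interferon list 9 fell and none rose, with a median log2 fold change of -0.73. Plscr1 and Casp4, named below among the largest rises, were outside this list, so these counts do not cover them. Zbp1, Ifi206 and Slfn5 met the low-count minimum only through the partners. With no minimum, 11 of 29 fell and none rose (median -0.91). Gbp5, an interferon-inducible GTPase, was at 71.7, 64.1, 34.3 and 40.0 against 104, 186, 114 and 94.5 CPM (-1.24, adjusted p 2.26e-09, edgeR). Gbp5 separated the classes without overlap. Zbp1, a nucleic-acid sensor, was at 23.1, 5.6, 12.3 and 4.9 against 45.7, 56.6, 25.7 and 17.4 CPM (-1.47, adjusted p 1.31e-05, edgeR), with overlap between libraries but a lower level in the members of each. Ifngr1, a chain of the interferon gamma receptor, was at 12.3, 11.2, 15.3 and 12 against 31.2, 45.3, 44.6 and 23.2 CPM (-1.38, adjusted p 1.27e-06, edgeR). Ifi209 (-1.65), Ifi214 (-1.37), Iigp1 (-1.28) and Tgtp1 (-1.26) were also among the 12 largest named falls. The Ifi200, Gbp and Tgtp genes have close copies, so single-gene values are uncertain where reads fit several. Genes such as Ifit1 (-0.84, adjusted p 0.231, edgeR) and Isg20 (0.03, adjusted p 0.970, edgeR) did not pass. Of 5 tested interferon regulatory factors 3 fell, Irf1, Irf2 and Irf8, with Irf1 at 72.4, 80.9, 66.5 and 65.5 against 116, 167, 129 and 76.7 CPM. In the promoter windows, GAS letters stood in 9.85% of 264 genes that fell and 5.90% of 5826 tested, and ISRE letters in 8.33% and 2.69%; in 283 genes that rose the shares were 7.07% and 2.83%. These shares are descriptions without a test.

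**Figure D3:**
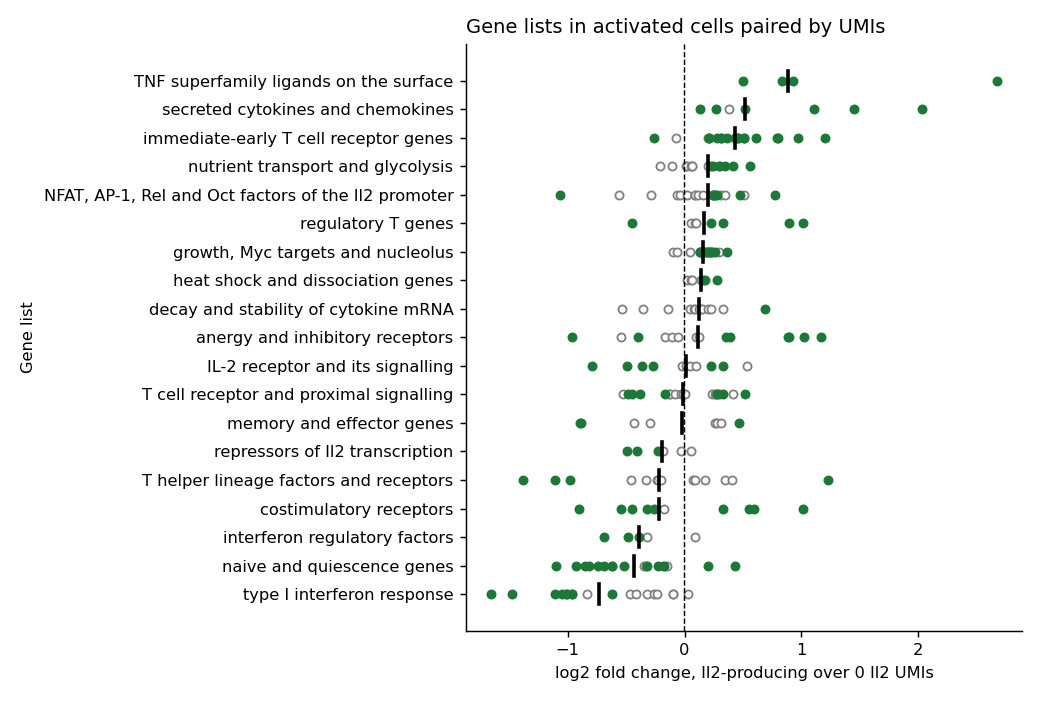
Log2 fold change (x axis) of each tested gene in 19 gene lists (y axis) between Il2-producing cells and depth-matched activated cells with 0 Il2 UMIs; filled points passed edgeR's test, bars are list medians and the dashed line is the median of all genes. TNF family ligands and cytokines have the highest medians (0.88 and 0.51) and the type I interferon list the lowest (-0.73). With no low-count minimum these medians were 0.85, 1.38 and -0.91, so the order of ligands and cytokines depends on it.

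Resting-cell genes were lower and growth genes higher, by smaller amounts than against all cells. Of 18 tested naive and quiescence genes 11 fell and 2 rose (median -0.43). Klf2, which keeps T cells quiescent and recirculating, was at 50.9, 51.6, 46.0 and 58.5 CPM against 93.6, 53.8, 112 and 111, with near-equal values in the female WT library (-0.93, adjusted p 2.48e-07, edgeR). Ccr7, the lymph node homing receptor, was at 306, 291, 189 and 318 against 440, 440, 378 and 422 CPM (-0.62, adjusted p 1.14e-08, edgeR). Of 20 growth genes 12 rose (median 0.16), and of 15 nutrient-transport and glycolysis genes 6 rose, led by Hk2, the first enzyme of glycolysis (0.56, adjusted p 7.64e-05, edgeR). None of either list fell. Of 7 tested heat shock genes 3 rose (median 0.14). Mitochondrial UMIs, taken over all members, had medians of 3.51% to 3.66% against 3.80% to 3.95% in all cells with 0 Il2 UMIs.

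Most helper-lineage genes did not pass the test. Tbx21 (-0.33, adjusted p 0.354) and Gata3 (-0.23, adjusted p 0.455) did not pass edgeR's test, and Bcl6 did not either. Of 14 tested lineage genes 1 rose, Rora, and 3 fell, with Ifngr1 and Il12rb2 among them, beside 4.91% of all genes tested that rose and 4.66% that fell. Rora was at 14.6, 15.3, 39.4 and 13.2 CPM against 16.0, 7.08, 7.86 and 6.22 (1.23, adjusted p 0.00264, edgeR), highest in the members of the male library labelled Irf5-/- and not higher in the female one. Rora met the low-count minimum only through the members. Of 8 tested memory and effector genes 1 rose, Cd44 (0.47, adjusted p 0.0255, edgeR), and 2 fell.

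Further genes with the largest named differences belonged to no list. Plscr1, a membrane-associated phospholipid scramblase, was at 64.0, 102, 63.9 and 40.0 CPM against 27.4, 21.2, 16.8 and 7.9 (1.87, SE 0.16, adjusted p 8.77e-11, edgeR). Eea1, a tether of early endosomes, was at 336, 336, 388 and 367 against 148, 178, 157 and 192 CPM (1.09, SE 0.07, adjusted p 1.11e-14, edgeR). Id3, an inhibitor of E-protein transcription factors, was at 102, 71.1, 132 and 147 against 69.3, 41.1, 55.0 and 57.6 CPM (1.09, SE 0.11, adjusted p 2.66e-09, edgeR). All 3 were separated without overlap. Prelid2 (1.45), Themis (1.21), Rilpl2 (1.21) and Casp4 (1.19) completed the 12 largest named rises; Rilpl2 did not pass after thinning to 2000 UMIs (adjusted p 0.0909) and Casp4 did not without the male library labelled Irf5-/- (adjusted p 0.0810), both by edgeR. Among the falls, Myb, a transcription factor of immature and dividing blood cells, was at 34.7, 9.8, 35.3 and 46.2 against 105, 59.5, 101 and 127 CPM (-1.57, adjusted p 2.28e-12, edgeR). Vps37b, a subunit of the ESCRT-I sorting complex, was at 43.9, 50.2, 44.0 and 37.1 against 109, 177, 108 and 88.3 CPM (-1.37, adjusted p 8.24e-12, edgeR). AW112010, a transcript induced by interferon and inflammation, was at 93.2, 50.2, 67.5 and 85.7 against 234, 154, 190 and 153 CPM (-1.24, adjusted p 4.47e-12, edgeR). Gimap7 (-1.40) and Kbtbd11 (-1.35) completed the 12 largest named falls. These 2 genes met the low-count minimum only through the partners, and Prelid2 only through the members.

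Levels of some genes were graded with the amount of Il2 per cell, given here over all gated cells as a description. Cd40lg averaged 46.0 ± 2.73 CPM (without TMM factors) at 0 Il2 UMIs, 54.5 ± 7.71 at 1, 59.2 ± 38.4 at 2, 76.2 ± 10.8 at 3 or 4, 111 ± 20.4 at 5 to 9 and 194 ± 22.6 at 10 or more (SD, n = 4 libraries). Among the members alone, each library's Cd40lg was highest in the cells with 10 or more Il2 UMIs. Tnf went from 59.2 ± 8.61 at 0 to 89.9 ± 15.2, 129 ± 13.0 and 211 ± 54.3 in the 3 groups of members. Lta showed no step between 3 or 4 and 5 to 9 Il2 UMIs (84.9 and 85.1 on average) and was 114 at 10 or more. In the female library labelled WT it fell over these groups (119, 98.5 and 96.7), so Lta was not graded in each library. Among the falls, Klf2 followed another shape. Klf2 averaged 277 at 0 Il2 UMIs, 160 at 1, 88.6 at 2 and 56.0, 47.4 and 49.9 in the members, so that most of its difference lay below the limit of the rule. Gbp5 went from 196 through 113 and 89.8 to 66.4, 45.4 and 43.5. Myb averaged 109, 93.4 and 75.2 at 0, 1 and 2 Il2 UMIs and 47.5, 31.4 and 26.2 in the members, so its average kept falling among them. On either side of the limit, Cd40lg averaged 66.5 ± 21.9 CPM in cells with exactly 3 Il2 UMIs and 59.2 in those with exactly 2. Tnf averaged 91.6 ± 25.1 and 112 ± 37.4 CPM there. Cells with exactly 2 Il2 UMIs numbered 51, 12, 45 and 44, and the scatter of that group was the widest for Cd40lg and Gbp5.

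**Figure D4:**
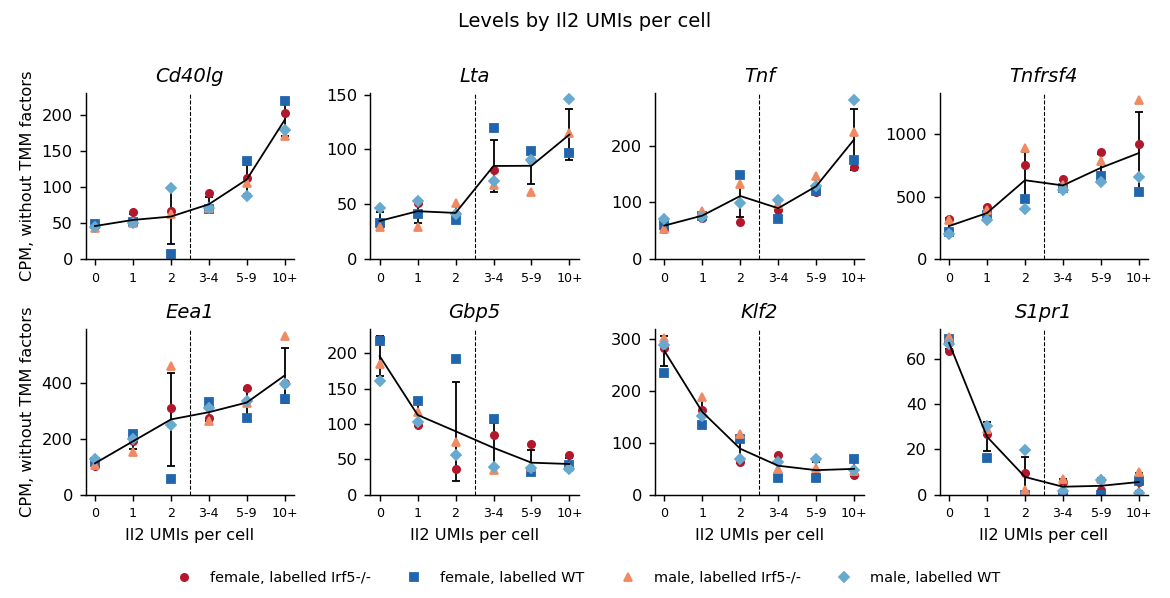
Level (y axes, CPM without TMM factors) of 8 genes by the number of Il2 UMIs per gated cell (x axes), with 1 symbol per library, the line and bars giving mean and SD over 4 libraries, and the dashed line the limit for members. Cd40lg and Tnf are highest at 10 or more Il2 UMIs (194 and 211 on average), while Klf2 is already down to 88.6 at 2.

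Within the members, few genes differed between the genotypes in a fit that included sex. Of 7528 genes 15 were higher (0.199%) and 11 lower (0.146%) in the libraries labelled Irf5-/- by edgeR, and 505 had an unadjusted p under 0.05. With DESeq2's size factors the split was 11 higher and 3 lower, with no sex term 5 genes were called and with DESeq2's Wald test 1, Ifng. Sp110, a nuclear body protein, had 0, 60, 0 and 220 UMIs in the members, at least 41.1-fold lower in the female and 56.4-fold lower in the male library labelled Irf5-/- when 3 counts per library are taken as the floor. Ifng had 47.9, 1.34, 129 and 3.07 CPM, all of it in 5, 1, 5 and 3 cells, so its log2 fold change of 5.33 (adjusted p 3.18e-63, edgeR) compares a few cells. Ide, the insulin-degrading enzyme, was at 135, 51.0, 134 and 65.3 CPM and was spread over 119, 27, 142 and 106 cells (1.16, SE 0.15, adjusted p 8.24e-11, edgeR). The genotypes did not overlap for Ide. Serpinb6b, a serine protease inhibitor, was at 41.5, 13.4, 30.9 and 9.61 CPM (1.66, adjusted p 3.32e-05, edgeR), Rgs1, a brake on chemokine receptors, at 56.2, 37.6, 53.5 and 14.6 CPM (1.34, adjusted p 3.19e-06, edgeR) and Iigp1 at 98.3, 51.0, 58.6 and 31.1 CPM (0.93, adjusted p 2.05e-04, edgeR). Lower in the libraries labelled Irf5-/- were Ccl4, at 161, 317, 129 and 198 CPM (-0.78, adjusted p 1.10e-06, edgeR), Tent5a, a cytoplasmic poly(A) polymerase, at 57.5, 68.4, 23.1 and 71.9 CPM (-1.001, adjusted p 4.49e-05, edgeR), Zbtb10 (-1.30) and Ifitm2 (-1.41). Ifitm2 was at 16.0, 37.6, 3.69 and 12.3 CPM, in 12, 5, 5 and 14 cells, and the genotypes overlapped. In fits without 1 library, which had no sex term, 1 genotype was a single library, assumed to vary like the other genotype's pair. Sp110, Ifng and Ide passed edgeR's test in each of these fits. Tent5a ranged from -1.61 to -0.298 and did not pass without the male library labelled Irf5-/- (-0.298, adjusted p 1, edgeR) or without either library labelled WT. Ifitm2 ranged from -2.44 to -0.322 and did not pass without the male library labelled Irf5-/- (-0.322) or the female one labelled WT (-0.432). Ccl4 did not pass without those same libraries either (-0.63 and -0.46). Zbtb10 did not pass without any 1 of the 4 (adjusted p 0.075 to 0.281, edgeR). Without the male library labelled WT, Rgs1 (0.546), Serpinb6b (1.41) and Iigp1 (0.588) did not pass, and Iigp1 did not without the female library labelled Irf5-/- (0.654). Ccl4 rested on few cells in each library, as given above. Among the lists read above, edgeR called 3 of 10 tested cytokines and chemokines (Ifng, Ccl4 and Xcl1). Xcl1, chosen after its values were seen, had 17, 1, 13 and 0 UMIs, in 1, 1, 2 and 0 cells. The test also called 1 of 21 immediate-early genes (Rgs1, with 7 at an unadjusted p under 0.05) and 1 of 18 type I interferon genes, Zbp1, which was higher in the libraries labelled Irf5-/- at 24.9, 5.36, 11.5 and 4.61 CPM (1.64, adjusted p 0.0442, edgeR). Of 14 helper-lineage genes it called 0, with 5 at an unadjusted p under 0.05. Of 21 tested NFAT, AP-1, Rel and Oct factors edgeR called 0 (4 at an unadjusted p under 0.05), of 11 genes of interleukin 2 receptor signalling 0 (2 unadjusted), of 10 costimulatory receptors 0 (2 unadjusted) and of 4 TNF family ligands 0 (1 unadjusted). DESeq2's Wald test called none of the genes of the lists with 0 calls.

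**Figure D5:**
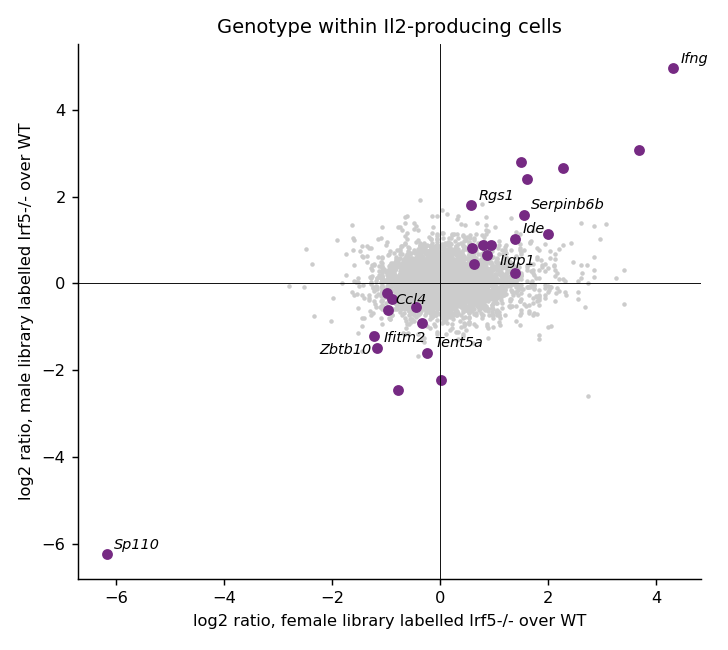
Log2 ratio of libraries labelled Irf5-/- over WT within Il2-producing cells in females (x axis) and males (y axis), 1 point per tested gene; large points passed edgeR's test over both sexes and the named ones are labelled. Sp110 and Ifng lie apart from the rest; Ifng rests on 5 cells in each library labelled Irf5-/-.

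Whether Il2-producing cells differed from cells with 0 Il2 UMIs by the same amount in both genotypes was tested as an interaction. Of 10231 genes 6 had a higher (0.0586%) and 7 a lower (0.0684%) log2 difference, members minus comparison class, in the libraries labelled Irf5-/- by edgeR. A lower difference is a smaller rise or a deeper fall. After thinning to 2000 UMIs edgeR called 0, with 341 at an unadjusted p under 0.05, beside 589 without thinning. Malt1, the paracaspase that links the antigen receptor to Rel factors, was at 227, 257, 309 and 219 CPM in the members and at 149, 230, 148 and 192 CPM in the comparison class. The step was thus larger in the libraries labelled Irf5-/-, where the comparison class lay lower (interaction 0.69, SE 0.11, adjusted p 5.76e-04, edgeR). Cd83, a surface protein of activated lymphocytes, was at 61.9, 84.3, 67.7 and 68.4 against 52.7, 38.6, 44.6 and 27.2 CPM, a smaller step in the libraries labelled Irf5-/- (-0.82, SE 0.16, adjusted p 0.0127, edgeR). Odc1, the first enzyme of polyamine synthesis, was at 735, 998, 765 and 929 against 694, 712, 742 and 743 CPM (-0.33, SE 0.07, adjusted p 0.0399, edgeR). In the members the genotypes did not overlap for Odc1. Over the alternative settings, leaving out each library among them, the interaction ranged from 0.43 to 0.89 for Malt1. For Cd83 it ranged from -1.03 to -0.25 and for Odc1 from -0.435 to -0.156. Irf5 itself was not called (-0.74, SE 1.09, adjusted p 0.996, edgeR).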

How the data were processed

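The 4 libraries had been made with a droplet method that captures the 3′ end of mRNA in single cells. The authors deposited raw UMI counts per gene and barcode, without normalization, for all barcodes. Cell Ranger 6.0.2 and mm10 are given per the submitters' processing notes, whereas the version in the file headers is Cell Ranger 4. The gene annotation, and whether reads were counted by strand, are not given in the sources used here. Gene positions were taken from GENCODE on GRCm38, where 99.8% of identifiers matched.

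Here, cells were chosen from the counts by the rule in the report, and no doublet caller was run. The members and the 26 gene lists were chosen with earlier results of these data known. Counts were summed per library and class, so the library was the replicate. edgeR 4.0.16 in R 4.3.3 was used with TMM factors, filterByExpr, quasi-likelihood tests, a block for library (or a term for sex) and Benjamini-Hochberg adjustment over all genes tested. The 8 genes of the rule and the 2 given markers stayed out of all counts of calls, and so did Irf4 and Myc in the paired comparison. CPM values are computed from the deposited counts. Named genes had an adjusted p under 0.05, the same direction in each library (for the comparisons of classes) and at least 20 CPM in a group: the 12 largest rises and falls for classes, 5 for genotype and interaction, plus Irf5. Genes with Gm or Rik symbols, mitochondrial, ribosomal and receptor-segment genes were not named. List members were named beside their list's counts. Shares of cells have exact 95% binomial intervals, and intervals and limits from a count of 0 (3 counts) cover counting error only.

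Alternatives were DESeq2 1.42.0, its size factors, no filter on low counts, at least 5 Il2 UMIs, thinning every cell to 2000 UMIs, other cell gates, pairings and covariates, and leaving out each library. A setting for possible doublets left out the highest 2% of barcodes by UMIs and those with a UMI of 7 genes of other lineages. Simulated counts with 200 changed genes were used to test the edgeR fits. All other steps ran in Python 3.11.15 (numpy 2.4.6).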

Additional observations from a re-analysis of the deposited data

Results flagged for a closer look

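The difference between Il2-producing cells and cells with 0 Il2 UMIs itself differed between libraries labelled Irf5-/- and WT for 8 named genes by edgeR's interaction test. The rise in the members, on the log2 scale, was larger in the libraries labelled Irf5-/- for Ifng (4.26), Malt1 (0.689) and Ybx3 (0.395). It was smaller there for Cd83 (-0.825), Fnbp1 (-0.485), Lad1 (-0.48) and Odc1 (-0.327). For Arap2 (-0.488) the members were lower and the fall was deeper there. Ifng rests on 5 cells in each library labelled Irf5-/-. Ybx3, a nucleic-acid binding protein, was at 519, 388, 483 and 384 CPM in the members against 249, 235, 213 and 231 CPM. Fnbp1 was at 181, 239, 188 and 255 CPM against 150, 156, 147 and 138 CPM, and Lad1 at 224, 282, 222 and 259 against 209, 181, 174 and 154 CPM. Arap2 was lower in the members of each library, at 163, 226, 156 and 202 against 334, 401, 334 and 276 CPM.

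Outside the gate, 65 of 1131 quality-passing barcodes without a UMI of Cd3e, Cd3d or Cd3g held at least 3 Il2 UMIs (5.75%; 5.94%, 5.36%, 5.90% and 4.84% per library). They were in no comparison, and the erythroid barcodes held no Il2 UMI.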

How the results depend on the processing

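The count of genes that differed from all cells with 0 Il2 UMIs moved from 4540 to 2834 when every cell was thinned to 2000 UMIs and to 1456 when cells were paired by depth. Without 1 library it was 3691 to 4340. The paired comparison of activated cells moved from 692 to 188 with DESeq2, to 170 after thinning and to 1078 without pairing. It ranged from 373 (without the male library labelled Irf5-/-) to 585 without 1 library. The 26 genotype calls within members became 14 with DESeq2's size factors, 1 with its Wald test (31 at an unadjusted p under 0.05), 12 at 5 or more Il2 UMIs, 13 without possible doublets, 52 without the Egr3 and Nrn1 conditions, 5 with no sex term and 4 after thinning. They ranged from 32 to 61 without 1 library, where no sex term could be kept: 61 without the female and 56 without the male library labelled WT. The 13 interaction calls became 21 with DESeq2's size factors, 1 with its Wald test, 32 without a filter, 25 at 5 or more Il2 UMIs, 30 with a term for class by sex and 0 after thinning (edgeR, 341 at an unadjusted p under 0.05). They ranged from 19 to 25 without 1 library. The causes of these changes were not tested. Among named genes none changed direction while called. A value exists only where a named gene could be tested. In the plain comparison 278 values were available, all past the threshold, as were 269 of 272 in the paired one and 67 of 117 for genotype. For the interaction 69 of 108 kept their status, which includes Irf5, called in no setting. With depth pairing 17 of the 24 genes of the plain comparison had a value. Ifng had none there, after thinning or without the male library labelled Irf5-/-. Of the 24 genes of the paired comparison 15 stayed past the threshold and 1 did not with DESeq2, and likewise after thinning. The mean share of members was lower in the libraries labelled Irf5-/- under all 9 other settings, by 0.414 to 2.99 percentage points, but the groups overlapped after thinning. The labels carry no replicate numbers, so no block by number was made; sex paired the libraries of both genotypes as a term of the genotype fit, and the library was the block of the class comparisons.

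The female library labelled WT held 65 members and 756653 of their UMIs, which limits every contrast between genotypes. Cells with 0 Il2 UMIs can include producers whose transcripts were not captured.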
